A study of Homo sapiens with 16 samples.

Results

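The genes described here make cholesterol and fatty acids. They are 31 genes chosen by name: 7 of the mevalonate steps, 11 of the sterol steps, 5 that regulate the pathway or carry sterols, and 8 of fatty acid synthesis and desaturation. They are 31 of the 30982 distinct names that the array gives to its 41000 probes. Each was read from its brightest probe, by the mean of the deposited log2 values. Names are those of the array, where SC4MOL is the gene now called MSMO1 and SC5DL the one now called SC5D.

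The cells were Caco-2, an epithelial line from a human colon carcinoma, used here undifferentiated, with RNA of each culture on 1 single-colour Agilent array. The line was maintained in medium with 10% foetal calf serum. Cultures were seeded in medium with 1% foetal calf serum and treated on the third day, for 6 h in medium with the same share of serum: with nothing added (MED-CTL), with gliadin digested by pepsin and trypsin (PT-G), with the same digestion carried out without gliadin (PT), or with the gliadin peptide p31-43 at 150 µg/ml. Each condition had 4 arrays from separate experiments, 16 in all. The question was which members differed between a treatment and medium, between the gliadin digest and the blank digest, and between the 2 digests and the peptide.

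Cholesterol is built from acetyl-CoA through mevalonate, squalene and lanosterol, and fatty acids from the same precursor through malonyl-CoA. Both routes are switched on by the SREBP transcription factors, products of SREBF1 and SREBF2, which SCAP escorts out of the endoplasmic reticulum when sterols are low and INSIG proteins hold there when sterols are high. Enterocytes take up sterol from the gut lumen besides making it.

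All 8 epithelial markers, among them CDH1, VIL1 and KRT18, were well above background on 16 arrays, while COL1A2, PTPRC and CDH5, which mark fibroblasts, leukocytes and endothelium, were on 0 arrays. The rest of the fibroblast, leukocyte and endothelium lists was not absent, since 3 of 5, 2 of 3 and 2 of 3 of their genes were well above background on all arrays. None of the markers of the 4 cell classes passed the threshold of a nominal p under 0.01 in any comparison. The arrays had median intensities of 153 to 410 over local backgrounds of 48 to 65, and all 31 members were well above background on each of them. In cultures measured as a whole, fewer cells of a kind and less RNA per cell cannot be told apart.

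A promoter window from 250 bases before to 50 after the start of transcription was given by RefSeq (GRCh38.p14) for 27 of the 31 members. ACAT2, FDFT1, SQLE and FASN had no entry. The sterol regulatory element to which SREBPs bind was searched as TCACNCCAC on both strands, and other forms of it were not searched. It was found in the window of 1 member, SREBF2. That was 2.63% of the members' 38 windows, against 1.13% of the 35116 promoters of this length. The SREBF2 promoter (chr22:41832855-41833154, + strand) is shown because it holds this element, given in capitals and beginning 133 bases before the start. SREBF2 encodes the SREBP of sterol synthesis. The STARD4 promoter (chr5:111512486-111512785, - strand) is shown because STARD4 had the smallest p of the members between PT-G and MED-CTL, with its 2 NF-Y boxes (CCAAT) in capitals, beginning 161 and 130 bases before the start.
SREBF2: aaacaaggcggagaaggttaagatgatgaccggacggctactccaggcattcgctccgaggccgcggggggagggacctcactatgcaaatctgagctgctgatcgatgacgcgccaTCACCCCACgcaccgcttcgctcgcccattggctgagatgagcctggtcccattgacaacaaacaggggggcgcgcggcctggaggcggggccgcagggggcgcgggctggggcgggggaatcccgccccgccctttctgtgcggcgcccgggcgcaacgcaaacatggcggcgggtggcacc
STARD4: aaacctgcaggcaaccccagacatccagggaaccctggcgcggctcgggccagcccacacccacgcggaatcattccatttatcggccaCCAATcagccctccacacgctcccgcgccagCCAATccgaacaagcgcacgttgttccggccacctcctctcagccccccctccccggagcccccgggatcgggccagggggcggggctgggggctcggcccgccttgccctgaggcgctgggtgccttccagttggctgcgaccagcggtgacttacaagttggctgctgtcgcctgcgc
An NF-Y box, the site of a factor that acts beside SREBPs, was in at least 1 window of 20 of the 27 members. Counted over windows, 63.2% of the members' 38 windows held one, against 34.6% of all promoters. For the Sp1 box (GGGCGG) the shares were 86.8% and 45%, for the E-box (CACGTG) 13.2% and 7.26%, and for the EGR site (GCGGGGGCG) 5.26% and 5.07%. EBP and ACACA were the 2 members with an EGR site, and both the EGR site and the Sp1 box are rich in G and C, so that their letters can overlap. These are matches of letters in a short window and not measured binding sites.

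No member passed the threshold between PT-G and MED-CTL, between PT and MED-CTL, between p31-43 and MED-CTL or between PT-G and PT (limma with no block for the run, n = 4 arrays per condition). Over all 40982 probes tested the share past it was 3.44%, 3.64%, 0.388% and 0.0903%, respectively. At an unadjusted p under 0.05 the members counted 1, 4, 1 and 1, where 7.98%, 8.98%, 2.15% and 0.781% of all probes were at that level. In this model no member had a Benjamini-Hochberg adjusted p under 0.05, against 0.944%, 0.820%, 0.00% and 0.00% of all probes. The arrays of a run tended to deviate together from their group means. The PT array of run 3 did not, with correlations across probes of -0.0176 with MED-CTL and 0.037 with PT-G. With the run as a block 2, 5, 1 and 1 members passed the nominal threshold, where 9.16%, 10.3%, 1.38% and 0.317% of all probes did. Of these, 1, ELOVL6 under PT, had an adjusted p under 0.05. The share of all probes at that adjusted level was not counted with this block. Against MED-CTL, the median log2 fold change of the members was 0.0074 for PT-G, 0.08 for PT and -0.0014 for p31-43, and between PT-G and PT it was -0.03, where the median of all probes lay between -0.010 and 0.0069. The estimates bound the changes as well. In each comparison, the 95% interval of 29 of the 31 members lay within a log2 change of 1 in either direction, the exceptions being SCD and SC4MOL. It lay within a change of 1.5-fold for 21 members with PT-G, 19 with PT and 24 with p31-43.

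**Figure D1:**
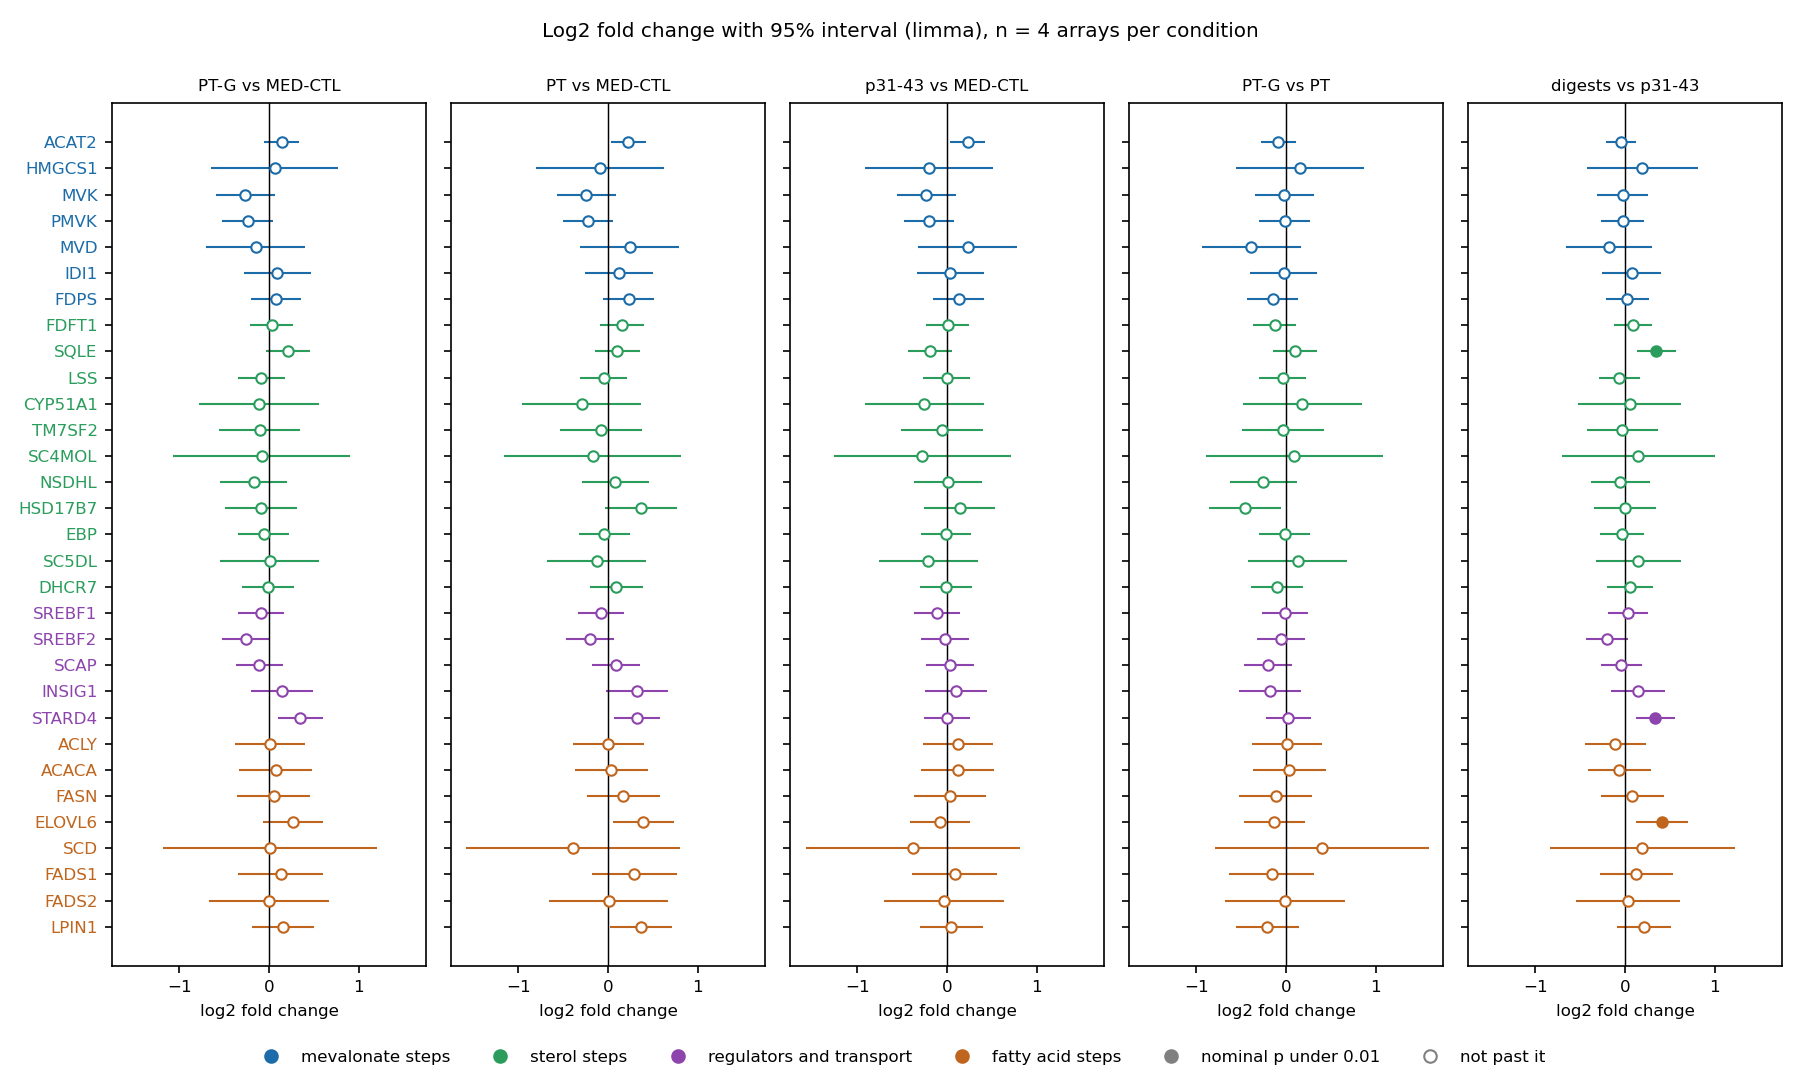
Log2 fold change of each of the 31 members (rows, coloured by role) in 5 comparisons (panels), with 95% intervals from limma, n = 4 arrays per condition. Filled points have a nominal p under 0.01. Filled points stand in the last panel alone, for SQLE, STARD4 and ELOVL6, and the intervals of SCD and SC4MOL are the widest.

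The mevalonate genes lead from acetyl-CoA to farnesyl diphosphate. Under PT-G their log2 fold changes against MED-CTL ran from -0.27 for MVK, mevalonate kinase, to 0.14 for ACAT2, the thiolase of the first step, and none of the 7 passed the threshold. HMGCS1, which makes HMG-CoA, stood at 14.86 ± 0.58 (log2 intensity, SD, n = 4) in MED-CTL and 14.92 in PT-G, a difference of 0.06 with an SE of 0.33. A dimmer HMGCS1 probe gave 0.42 with an SE of 0.38. MVK and PMVK, the 2 kinases, had values of -0.27 and -0.24 with PT-G, -0.24 and -0.22 with PT and -0.23 and -0.20 with p31-43. These comparisons share the MED-CTL arrays, and in none of them did either kinase reach a nominal p under 0.05 (limma). The MVK probes disagreed, since a dimmer one gave -0.24 with PT-G, -0.0045 with PT and 0.19 with p31-43. ACAT2 was 0.23 above MED-CTL under both PT and p31-43 (SE 0.09, limma, adjusted p = 0.428 and 1.00). A dimmer ACAT2 probe gave 0.07 under PT and 0.0029 under p31-43.

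The sterol genes turn farnesyl diphosphate into cholesterol. Of the 11, none passed the threshold against MED-CTL, and their values ran from -0.17 (NSDHL) to 0.21 (SQLE) with PT-G, from -0.29 (CYP51A1) to 0.37 (HSD17B7) with PT and from -0.28 (SC4MOL) to 0.14 (HSD17B7) with p31-43. DHCR7, which catalyses the last reduction, gave -0.01 with PT-G, 0.09 with PT and -0.01 with p31-43 against MED-CTL (SE 0.14). HSD17B7, a sterol ketoreductase, was the member with the lowest value of PT-G against PT, -0.46 (SE 0.19, limma, adjusted p = 1.00). Its gene has related pseudogenes, so that its probe may hold signal of copies, as may those of FDPS and CYP51A1.

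Probes of LSS, lanosterol synthase, disagreed. Its brightest probe gave -0.09 under PT-G and -0.05 under PT, and the second brightest -0.05 and 0.14. The other two LSS probes, which are dimmer, were 0.42 (limma, adjusted p = 0.0752) and 0.39 (adjusted p = 0.207) above MED-CTL under PT, both past the nominal threshold, and 0.31 and 0.26 above it under PT-G, where 1 of them passed. A dimmer probe of ACACA, acetyl-CoA carboxylase, was 0.26 above MED-CTL under p31-43 and 0.27 lower with the digests than with p31-43 (both past the threshold, adjusted p = 1.00 and 0.0937 in limma), while the brightest ACACA probe gave 0.12 and -0.06. The FADS1 probes differed in sign. The brightest gave 0.13 with PT-G, 0.29 with PT and 0.09 with p31-43 against MED-CTL. A dimmer one gave -0.10, -0.12 and -0.13, and neither probe passed the threshold. In all, the 31 members had 49 probes, and 15 members had more than 1.

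Among the regulators and carriers, SREBF1 gave -0.09 with PT-G, -0.08 with PT and -0.11 with p31-43 against MED-CTL (SE 0.12). SREBF2 stood at 13.20 in MED-CTL, 12.95 in PT-G, 13.00 in PT and 13.18 in p31-43 (means of 4 arrays), the PT-G difference being -0.26 (SE 0.13, limma, adjusted p = 0.675). SCAP lay between -0.11 and 0.09 in the 3 treatments. INSIG1, which retains SCAP and is itself an SREBP target, was 0.33 above MED-CTL under PT (SE 0.16, limma, adjusted p = 0.609) and 0.15 under PT-G.

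The fatty acid genes gave the same count of 0 of 8 past the threshold in each treatment. ACLY, which supplies cytosolic acetyl-CoA, differed from MED-CTL by 0.01 under PT-G (SE 0.18). FASN, fatty acid synthase, differed by 0.05 under PT-G and 0.17 under PT (SE 0.19). LPIN1, a phosphatidate phosphatase of triglyceride synthesis, was 0.37 above MED-CTL under PT (SE 0.16, limma, adjusted p = 0.512). SCD, the stearoyl-CoA desaturase, ranged over conditions from 13.38 to 13.78 on average, but its arrays spread so widely that its interval for PT-G reached from -1.18 to 1.20.

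The digests were then set against the peptide, as the mean of PT-G and PT minus p31-43. Here 3 members passed the threshold, all higher with the digests: SQLE, STARD4 and ELOVL6. Without a block 4.58% of all probes passed in this comparison, 2.12% with a higher value under the digests, and 1.83% had an adjusted p under 0.05. None of the 3 members reached that adjusted level in limma without a block. All 3 reached it with the run as a block, where 11.0% of all probes passed the nominal threshold. The share of all probes at the adjusted level was not counted with that block, so the 3 members cannot be set against it. The median over the members was 0.03, against 0.00059 over all probes. Exactly 3 members also had an unadjusted p under 0.05, where 9.71% of all probes did.

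SQLE, squalene epoxidase, catalyses a rate-limiting oxygenation of sterol synthesis. Its log2 intensities were 14.66, 14.79, 14.91 and 14.81 on the MED-CTL arrays, and 14.45, 14.46, 14.95 and 14.54 on the p31-43 arrays. With PT they were 14.90, 14.72, 14.95 and 15.02, and with PT-G 14.85, 14.92, 15.21 and 15.02. Replicates 1, 2 and 4 of p31-43 were below every digest array, and replicate 3 of p31-43 lay among them. The digests were 0.35 higher than p31-43 (SE 0.10, limma, adjusted p = 0.116), while against MED-CTL the values were 0.21 for PT-G, 0.11 for PT and -0.19 for p31-43, none past the threshold.

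STARD4 carries cholesterol between membranes and is an SREBP target. The MED-CTL arrays read 11.36, 11.51, 11.41 and 11.02, and the p31-43 arrays 11.55, 11.24, 11.14 and 11.38. The PT arrays read 11.73, 11.43, 11.70 and 11.75, and the PT-G arrays 11.78, 11.66, 11.76 and 11.51. Replicate 1 of p31-43 lay above PT replicate 2 and PT-G replicate 4, and the other digest arrays lay above all of p31-43. The digests exceeded p31-43 by 0.34 (SE 0.10, limma, adjusted p = 0.150). Against MED-CTL, STARD4 was 0.35 higher with PT-G (adjusted p = 0.292 in limma) and 0.33 higher with PT (adjusted p = 0.343), both short of the threshold.

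ELOVL6 lengthens the palmitate made by FASN. It read 10.40, 10.34, 10.91 and 10.65 in MED-CTL and 10.27, 10.48, 10.53 and 10.71 in p31-43. It read 10.70, 10.84, 11.16 and 11.18 in PT and 10.65, 10.63, 11.09 and 10.98 in PT-G. The highest p31-43 array lay above 3 of the 8 digest arrays. The digests exceeded p31-43 by 0.41 (SE 0.14, limma, adjusted p = 0.212), and PT exceeded MED-CTL by 0.39 (adjusted p = 0.429).

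Leaving out 1 array ended these calls in several cases. SQLE fell short without p31-43 replicate 1, 2 or 4, with values of 0.30, 0.30 and 0.33. STARD4 did so without p31-43 replicate 2 or 3, PT replicate 1 or 4, or PT-G replicate 1 (0.28 to 0.33), and ELOVL6 without any of 9 arrays, among them each of p31-43 replicates 1 to 3 (0.33 to 0.42).

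**Figure D2:**
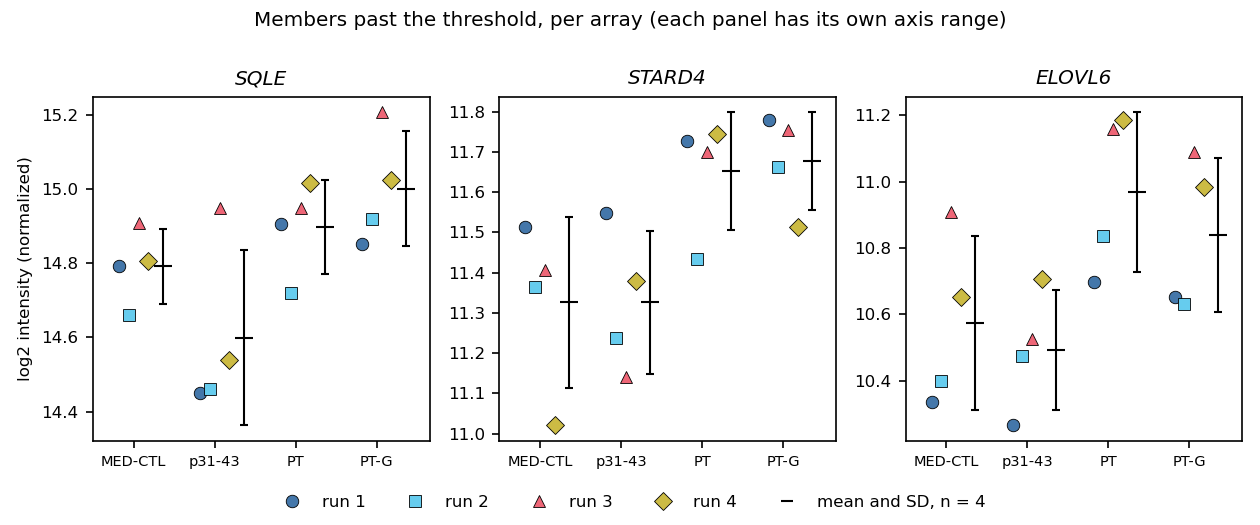
Normalized log2 intensity of SQLE, STARD4 and ELOVL6 on each of 16 arrays by condition, with symbols for the 4 runs and the mean and SD of 4 arrays beside them. The PT and PT-G means lie above the p31-43 mean in each panel, and single p31-43 arrays reach into the range of the digests.

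The 16 arrays formed 4 runs, each with 1 array of every condition, and differences were also taken within runs. In runs 1 to 4, digests minus p31-43 was 0.43, 0.36, 0.13 and 0.48 for SQLE, 0.20, 0.31, 0.59 and 0.25 for STARD4, and 0.41, 0.26, 0.60 and 0.38 for ELOVL6, positive in 4 of 4 runs for each. With the run as a block in the model the 3 genes passed again, with adjusted p of 0.00678, 0.0387 and 0.00214 (limma), where 11.0% of all probes had a nominal p under 0.01. With the replicate number as the block ELOVL6 passed between PT-G and MED-CTL (7.59% of all probes) and 0 members between p31-43 and MED-CTL (1.05%). With the run as the block the members that passed between PT-G and MED-CTL were STARD4 and ELOVL6. Between PT and MED-CTL they were INSIG1, ACAT2, STARD4, ELOVL6 and LPIN1, all higher. ACAT2 passed between p31-43 and MED-CTL, and HSD17B7, lower, between PT-G and PT. Of these 9 results against MED-CTL or PT, only ELOVL6 under PT also had an adjusted p under 0.05 (0.00875 in limma). How many of all probes reached that adjusted level with this block was not counted. With the slide as a block 7 members passed between digests and p31-43, the other 4 being HMGCS1, CYP51A1, SC4MOL and SC5DL, where 13.3% of all probes passed.

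The spread of the members lay more between runs than between conditions. Of the sum of squares of a member over 16 arrays, a median of 57.7% fell between runs, 12.1% between conditions and 25.1% in neither. The 24694 probes well above background on all arrays gave 55.3%, 14.1% and 24.4%. For 25 of 31 members the 4 run means spanned a wider range than the 4 condition means. The exceptions included SQLE and STARD4, with 52.6% and 57.5% of their sum of squares between conditions.

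**Figure D3:**
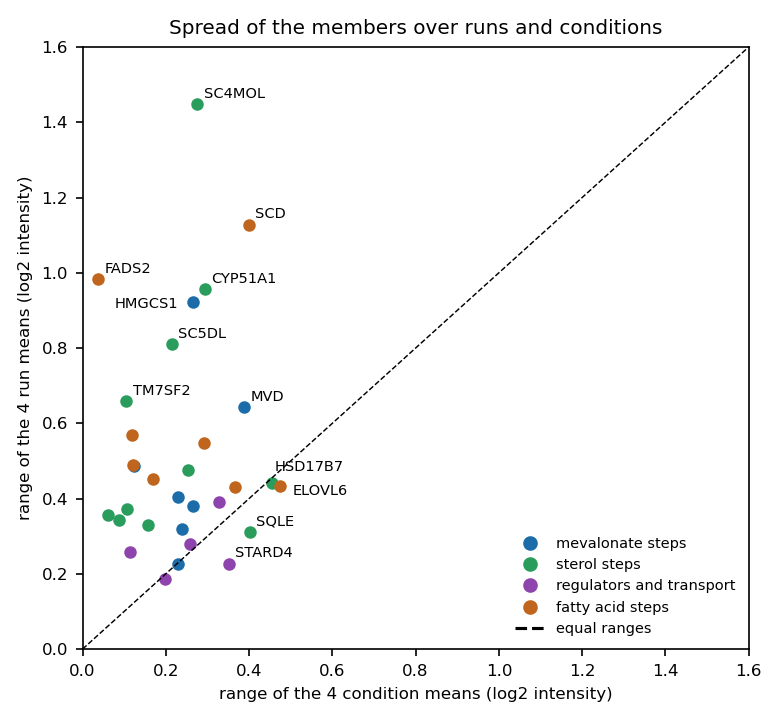
Range of the 4 run means (vertical) against the range of the 4 condition means (horizontal), both in log2 intensity, 1 point per member, coloured by role. Points above the dashed line of equal ranges are the 25 members that varied more over runs, with SC4MOL, SCD and FADS2 farthest from it.

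FADS2, a desaturase of polyunsaturated fatty acids, showed the runs most plainly. Its arrays lay between 12.27 and 12.56 in the 2 earlier runs and between 13.04 and 13.37 in the 2 later ones, with 98.6% of its sum of squares between runs and 0.12% between conditions. DHCR7 did not overlap between the periods either, with 16.40 to 16.73 in the earlier and 16.74 to 17.15 in the later runs, and 6.28% of the probes measured on every array had no such overlap.

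In run 3, several members were high on the arrays of MED-CTL and PT-G. SC4MOL, a methylsterol oxidase, read 13.38 and 13.26 there and between 11.14 and 12.86 on the others. CYP51A1, lanosterol demethylase, read 16.05 and 16.06, with 15.65 on the p31-43 array of that run and at most 15.23 on the other arrays. SCD read 15.86 and 15.07, while the other 14 arrays lay between 12.78 and 13.58. The second brightest SCD probe read 12.45 and 12.24 on these 2 arrays and 11.89 to 12.43 on the others, so the SCD probes disagreed in size. MVD, the decarboxylase of the mevalonate steps, was low instead, with 11.79 on the MED-CTL array of run 3 against 12.81 to 12.96 on the other MED-CTL arrays. The MED-CTL, p31-43 and PT-G arrays of this run lay on 1 slide, and its PT array on another together with p31-43 replicate 4. The part of slide and run in these values was not tested.

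**Figure D4:**
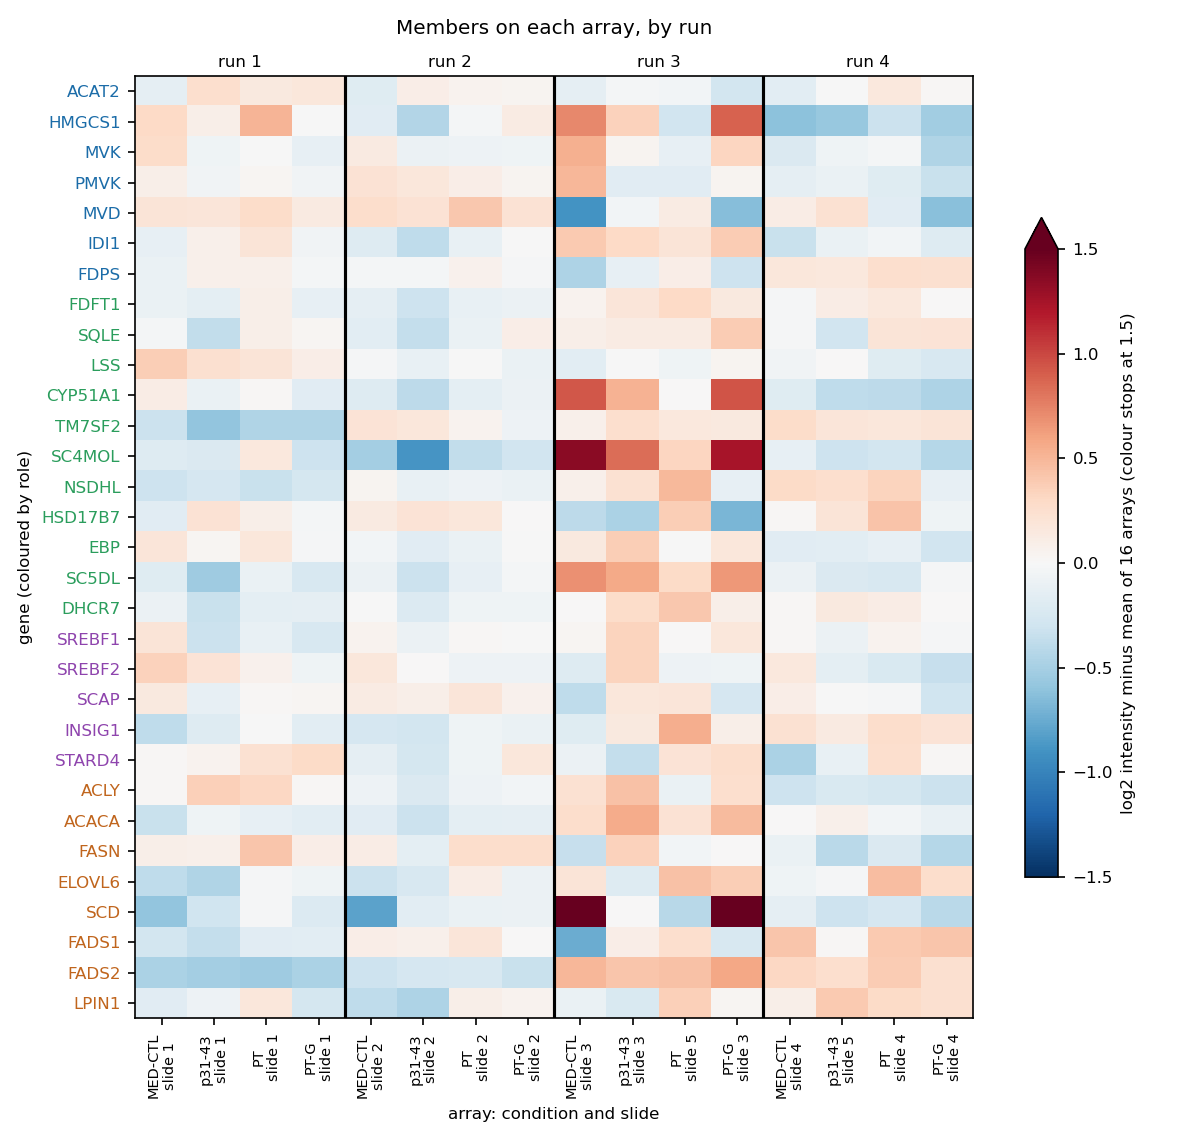
Log2 intensity of each member (rows, coloured by role) on each array minus its mean over 16 arrays, with arrays ordered by run and labelled by condition and slide. The earlier runs 1 and 2 are low for FADS2, and the MED-CTL and PT-G arrays of run 3 are high for SC4MOL, CYP51A1 and SCD.

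Other genes of sterol and fatty acid handling, 48 in 4 lists, were described on the same arrays. Without a block, the share of all probes past the threshold was 3.44% for PT-G, 3.64% for PT and 0.388% for p31-43. It was 0.0903% for PT-G against PT and 4.58% for digests against p31-43. Of the 12 other sterol pathway genes described here, 0 passed the threshold in any treatment against MED-CTL, and 1, INSIG2, was higher with the digests than with p31-43 (limma without a block). With the run as a block 1 of them passed for PT-G, 1 for PT and 2 for digests against p31-43. Of all probes 9.16%, 10.3% and 11.0% passed there. Of 7 genes of sterol export and LXR targets, 1 fell under PT-G and was lower with the digests than with p31-43. The run as a block gave 2 of these genes for PT-G, 1 for PT and 2 for digests against p31-43, with the same shares of all probes. Of 17 other fatty acid and triglyceride genes, 0 passed in any comparison without a block. With the run as a block 2 of them passed for PT-G, 3 for PT, 1 for p31-43 and 4 for digests against p31-43, among them GPAM, at -0.58 with PT-G and -0.65 with PT. Of all probes 9.16%, 10.3%, 1.38% and 11.0% passed in these comparisons. Of the 12 genes of fatty acid oxidation and PPAR targets described here, 1 rose under PT-G and PT and was higher with the digests than with p31-43. The run as a block gave 2 of these 12 for PT-G, 2 for PT and 3 for digests against p31-43, where 9.16%, 10.3% and 11.0% of all probes passed.

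MYLIP, a ubiquitin ligase, is a target of the sterol sensor LXR. It read between 10.31 and 10.86 in MED-CTL, 10.50 and 11.22 in p31-43, 10.07 and 10.39 in PT and 9.92 and 10.41 in PT-G. It fell by 0.55 on the log2 scale with PT-G (SE 0.16, limma, adjusted p = 0.193) and was lower with the digests than with p31-43 by a log2 value of -0.70 (adjusted p = 0.0206). Its second probe gave -0.89 with PT-G and -1.03 for digests against p31-43 (adjusted p = 0.0152 and 0.00135 in limma). Under PT the brightest probe gave -0.42 against MED-CTL (limma, adjusted p = 0.403), short of the threshold. The second probe gave -0.66 under PT (limma, adjusted p = 0.0812), past the nominal threshold. Between PT-G and PT the probes gave -0.13 and -0.23, neither past it. The PT-G call on the brightest probe was lost without MED-CTL replicate 2 or 4 or PT-G replicate 1, 2 or 3, with values of -0.53 to -0.47.

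INSIG2, the second INSIG gene, was 0.39 higher with the digests than with p31-43 (SE 0.13, limma, adjusted p = 0.202), a call that held in 5 of 16 fits without 1 array. Its second probe gave 0.34 and did not pass. With the run as a block the brightest probe had an adjusted p of 0.00105 for digests against p31-43 (limma). For PT-G against MED-CTL the adjusted p with that block was 0.0384 (limma).

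PPARA, a nuclear receptor that turns on fatty acid oxidation, read 8.51 to 9.08 in MED-CTL, 8.67 to 9.05 in p31-43, 9.44 to 9.94 in PT and 9.62 to 9.72 in PT-G. The digest arrays did not overlap the others, and the share of all probes separated in this way was not counted. PPARA rose by a log2 value of 0.91 with PT-G and 0.91 with PT (SE 0.13, limma, adjusted p = 0.00390 and 0.00424), and it was 0.13 above MED-CTL with p31-43 (adjusted p = 1.00). Its 3 other probes gave 1.07, 0.47 and 0.14 under PT-G, the last short of the threshold. For digests against p31-43 the brightest PPARA probe gave 0.78 (limma, adjusted p = 0.00234). The other probes gave 0.83, past the threshold, and 0.24 and 0.04, both short of it. CPT1A and the other genes of its list described here did not pass the threshold in any comparison without a block.

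**Figure D5:**
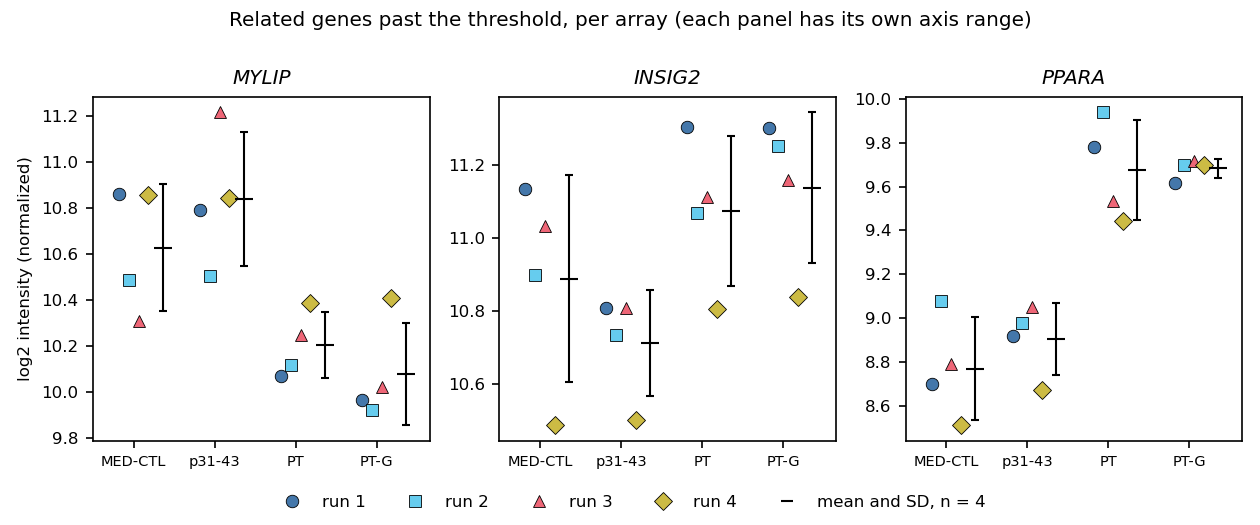
Normalized log2 intensity of MYLIP, INSIG2 and PPARA on each of 16 arrays by condition, with symbols for the 4 runs and the mean and SD of 4 arrays. For PPARA the 8 digest arrays (PT and PT-G) lie above the 8 arrays of MED-CTL and p31-43.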

How the data were processed

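RNA of 16 Caco-2 cultures was hybridised to single-colour Agilent arrays. The authors scanned them and extracted spots with Feature Extraction 9.5.3.1, per the submitters' processing notes, and deposited linear intensities per spot, with a median foreground column that is neither background-corrected nor normalized. The authors also deposited log2 values, which matched the median foreground after quantile normalization to within 5e-09. Here the log2 median foreground of the 43376 spots that were not controls was quantile-normalized, marked outlier spots were left out (0 concerned a member), and values of repeated spots were averaged by probe. Tests were made on the 40982 probes that had 3 or more unmarked arrays in every condition, in a model holding all 4 conditions (limma 3.58.1, R 4.3.3), 2-sided, at the study's nominal p under 0.01, with Benjamini-Hochberg adjustment over all probes beside it. The moderated test was checked on simulated data. The simulation included the model without a block on arrays with run effects, but no limit was set there on the share of unchanged probes called. A limit on the recovery of changed probes was set with the run as a block alone. The simulated outcomes are not reported here. No genome build is named for the probes, so genes have no positions. The number of arrays limits the precision.

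Members, lists and tests were chosen with earlier results of these data known. All 31 members were shown in the figures, and results of IDI1 were given there alone. Those past the threshold were given array by array, as were up to 6 genes per other list past it. Some genes of these lists are not reported here. Promoters were those holding the sterol element, and STARD4 was added after its values were seen. A run is the 4 arrays whose file names share a date. Replicate numbers follow the runs except for MED-CTL replicates 1 and 2. Deviations from the group means of arrays of 1 run correlated across probes at 0.625 to 0.858 between PT-G and MED-CTL, 0.536 to 0.708 between p31-43 and MED-CTL, -0.0176 to 0.618 between PT and MED-CTL and 0.037 to 0.695 between PT-G and PT. By replicate number these ranges were 0.395 to 0.858, 0.263 to 0.708, -0.0176 to 0.41 and 0.037 to 0.695. Alternatives were the background-subtracted signal, normexp (offset 50), median scaling, the deposited table, a filter on dim probes, marked spots kept, all probes of a gene, blocks for replicate number, run, slide or period, weights for arrays (statmod 1.5.0), models limited to the groups compared, a prior with an intensity trend, and omission of each array in turn.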

Additional observations from a re-analysis of the deposited data

Results flagged for a closer look

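On 13 of the 124 sets of 4 arrays, 1 per member and condition, the highest or lowest array stood apart from the others by more than the 95% critical value of Dixon's ratio, where chance gives about 1 in 20 sets. On the slide that held 3 arrays of run 3 these were the log2 intensities of SC4MOL (13.26), ACACA (8.648), SCD (15.07) and HSD17B7 (10.16) in PT-G replicate 3, of SC5DL (15.52), MVD (11.79) and SCAP (13.62) in MED-CTL replicate 3, and of MVK (15.14) and HSD17B7 (10.37) in p31-43 replicate 3. The remaining 4 were FDPS in PT replicate 4 (15.52), SREBF2 in PT-G replicate 4 (12.74), STARD4 in PT replicate 2 (11.43) and TM7SF2 in p31-43 replicate 1 (14.53).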

How the results depend on the processing

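No result changed its direction past the threshold under any alternative. Members past it between PT-G and MED-CTL, 0 as reported, were 1 with normexp (STARD4), 1 with the replicate block (ELOVL6), 2, 3 and 1 with run, slide or period as the block, and 1, lower, under array weights (SREBF2). Between PT and MED-CTL, 0 as reported, they were 2 with the replicate block, 5, 3 and 2 with run, slide or period as the block, and 1 under array weights. For p31-43 they were 1 and 4 (3 of the 4 lower) with run or slide as the block, and 1 under array weights. Between PT-G and PT the replicate block, run and slide each gave 1, HSD17B7. Between digests and p31-43, 3 as reported, they were 1 (SQLE) with the background-subtracted signal, median scaling or an intensity trend, 7 with slides as the block and 3 with the replicate block. The share of all probes past the threshold moved too. With the replicate block, run, slide, period or array weights it was 7.59%, 9.16%, 12.2%, 5.85% and 7.43% for PT-G (3.44% as reported), 8.49%, 10.3%, 10.6%, 6.06% and 6.15% for PT (3.64%), 1.05%, 1.38%, 3.73%, 0.786% and 1.4% for p31-43 (0.388%), 0.232%, 0.317%, 0.364%, 0.185% and 0.39% for PT-G against PT (0.0903%), and 9.42%, 11.0%, 13.3%, 7.35% and 7.68% for digests against p31-43 (4.58%). It was 3.49% with normexp for PT-G, and for digests against p31-43 3.62%, 3.6% and 3.78% with the background-subtracted signal, median scaling and the trend. Leaving out 1 array gave 0 to 1 members for each treatment against MED-CTL, 0 to 0 for PT-G against PT, and 0 to 3 for digests against p31-43, with 0 without p31-43 replicate 2 and 1 without p31-43 replicate 1 or 3 or PT replicate 4. Median scaling moved the median of all probes to -0.109 for PT against MED-CTL, and the background-subtracted signal moved it to 0.105 for digests against p31-43. The causes were not tested.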
